A study of Drosophila melanogaster with 8 samples.

Results

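Ovary RNA of the chk2P6 background was compared with ovary RNA of the chk2P30 background in Drosophila melanogaster. The 4 P6 arrays (het 3, het 4, null 3 and null 4) were set against the 4 P30 arrays (het 1, het 2, null 1 and null 2), which together are all 8 arrays of the study. Arrays were assigned by their genotype labels alone, and no measured value entered the choice. Each array was Affymetrix Drosophila 2.0, a 3′-biased short-oligonucleotide array, hybridised with amplified RNA (50 ng total RNA before amplification) from about 100 pairs of ovaries of virgin females. P6 and P30 are deletion alleles of chk2, the gene named lok in the annotation, and every animal, het or null, carried a single chk2 deletion over a normal chk2 copy. The null animals carried mutant alleles of otefin (ote) on both second chromosomes. The het siblings carried a mutant ote allele over the CyO balancer, which is normal for ote.

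By the sample labels, P30 null animals were otefinPk, Chk2P30 / otefinG and P30 het animals were otefinPk, Chk2P30 / CyO. The P6 animals had the same ote alleles with Chk2P6 in place of Chk2P30. The methods instead place oteB279G, a piggyBac transposon insertion, on the P30 chromosome and otePK, a premature stop, on the P6 chromosome, in which case P30 het and P6 het animals differ in their ote allele as well. The labels give an age of 4 to 6 hours after eclosion and the methods an age of 1 day. The backgrounds therefore differed in the whole second chromosome that carried the chk2 allele, and possibly in ote allele, and these cannot be told apart here. Nothing in the labels says when arrays of each background were collected or processed, so that a difference of handling cannot be told apart from the background either. The labels call the 2 samples of each group biological replicates.

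Egg chambers of the Drosophila ovary form in the germarium and mature through successive stages, in which germline cells are wrapped by somatic follicle cells. The follicle cells first make yolk proteins, then the vitelline membrane, and at the end the chorion proteins, in a fixed order. In the hours after eclosion the oldest chambers of each ovariole are still advancing, and the makeup of chambers in a dissected ovary changes with age. Chk2 is the kinase that stops germline development after DNA damage, and Otefin is a LEM-domain protein of the nuclear lamina.

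All signals below are log2 values, and all differences are P6 minus P30 on the log2 scale with the het or null label as a covariate (limma, ± SE, 4 arrays against 4). Values per array are given in the order het 1, het 2, null 1 and null 2 for P30, and het 3, het 4, null 3 and null 4 for P6. In bulk ovary RNA, fewer cells of a type and less RNA per cell cannot be told apart. The presence of ovary was borne out by oskar (osk), the germline RNA that sets the posterior pole, which lay between 13.29 and 13.56 on all 8 arrays. This does not show that other tissues were absent, and glue and male accessory gland genes were high on some arrays (below).

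Several arrays stood apart before any comparison. Ote had its lowest signal on the array labelled het 2, below all 4 null arrays, so that arrays are named here by their labels only. On the component that held 34.7% of the variance, the arrays numbered 2 lay at one end (40.8 and 47.7) and those numbered 3 at the other (-49.0 and -45.7), while those numbered 1 and 4 lay between them, from -12.0 to 19.5. The number 2 arrays are P30 and the number 3 arrays are P6. Correlations between arrays were 0.957 to 0.990, and averaged 0.978 within a background and 0.975 between backgrounds.

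No probe set passed an adjusted p under 0.05 in the comparison of P6 with P30 (limma, Benjamini-Hochberg, 0 of 18769, 0%), and the lowest adjusted p was 0.512. At an unadjusted p under 0.05, 1828 probe sets (9.74%) differed, 996 higher and 832 lower in P6. With the thresholds of the study, a fold of 2 or more and an unadjusted p under 0.05, 209 probe sets were higher in P6 (1.11%) and 98 lower (0.522%). These are named called below, and none of them survives the adjustment for the number of probe sets. Counted as genes, 171 of 11982 were called higher (1.43%) and 73 lower (0.609%). At an unadjusted p under 0.05 alone the shares of genes were 6.63% higher and 4.79% lower. In 383 genes (3.2%) every P6 array lay above every P30 array, and in 356 genes (2.97%) every P6 array lay below. Over all genes the median log2 difference was -0.01, with 5874 genes higher and 6108 lower.

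Of the 12 called genes with the largest log2 differences above P30, 5 were on the vitelline membrane and early eggshell list, made by follicle cells in the middle of egg chamber growth. All 9 measured genes of the vitelline membrane and early eggshell list (13 listed) had a higher mean in P6. Of them 5 were called higher, against 1.43% of all genes. The lists were chosen with earlier results of these data known, so that such counts, here and below, lend no support. The median log2 difference over the list was 2.02. Vm32E, a vitelline membrane protein, gave log2 signals of 10.09, 7.74, 9.06 and 10.53 in P30 and 12.32, 10.58, 11.71 and 11.73 in P6. Every P6 array therefore lay above every P30 array, although null 2 and het 4 were nearly level. The log2 difference was 2.23 ± 0.64 (exact permutation p = 0.0286, the smallest value the 70 assignments allow). Any gene without overlap gets this p, and Vm32E was picked for its large difference, so the p lends no support.

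Vm26Aa and palisade (psd), further vitelline membrane proteins, were parted in the same way. For Vm26Aa the log2 signals were 11.71, 8.72, 10.99 and 9.54 in P30 and 12.63, 11.97, 12.04 and 12.42 in P6, a log2 difference of 2.02 ± 0.65. The signals of psd were 9.29, 7.33, 8.63 and 7.85 in P30 and 10.81, 9.72, 10.76 and 10.004 in P6, a log2 difference of 2.05 ± 0.48. In both genes het 1 came closest to the P6 arrays.

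Vm26Ac and defective chorion (dec, also dec-1), which encodes eggshell proteins needed for chorion assembly, had larger mean differences but overlapping arrays. Vm26Ac ranged widely inside each background, with log2 signals of 9.21, 4.58, 6.75 and 9.12 in P30 and 11.09, 8.57, 10.31 and 11.39 in P6, and its log2 difference of 2.93 ± 1.12 was the largest of all called genes. For dec the log2 signals were 11.55, 7.26, 8.3 and 9.19 in P30 and 12.70, 11.11, 11.55 and 11.56 in P6, a log2 difference of 2.65 ± 0.89. The het 1 array reached the P6 range for dec, and the array labelled het 2 was the lowest for both genes. With the number 1 and 4 arrays alone the log2 differences of the 5 called genes were 2.0 for Vm26Ac, 1.58 for Vm32E, 1.41 for dec, 0.90 for psd and 0.84 for Vm26Aa.

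The remaining members of the list were not called, and Fcp3C and Femcoat varied widely inside each background. Vm34Ca gave a log2 difference of 0.79 ± 0.30, closca (clos) of 0.41 ± 0.32, Fcp3C of 1.15 ± 1.84 and Femcoat of 0.69 ± 2.07. Femcoat gave log2 signals of 9.53, 5.02, 4.33 and 8.0 in P30 and 8.49, 4.43, 4.5 and 12.21 in P6, so that high and low arrays occurred in each background. These 4 genes were named after their values were seen.

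**Figure D1:**
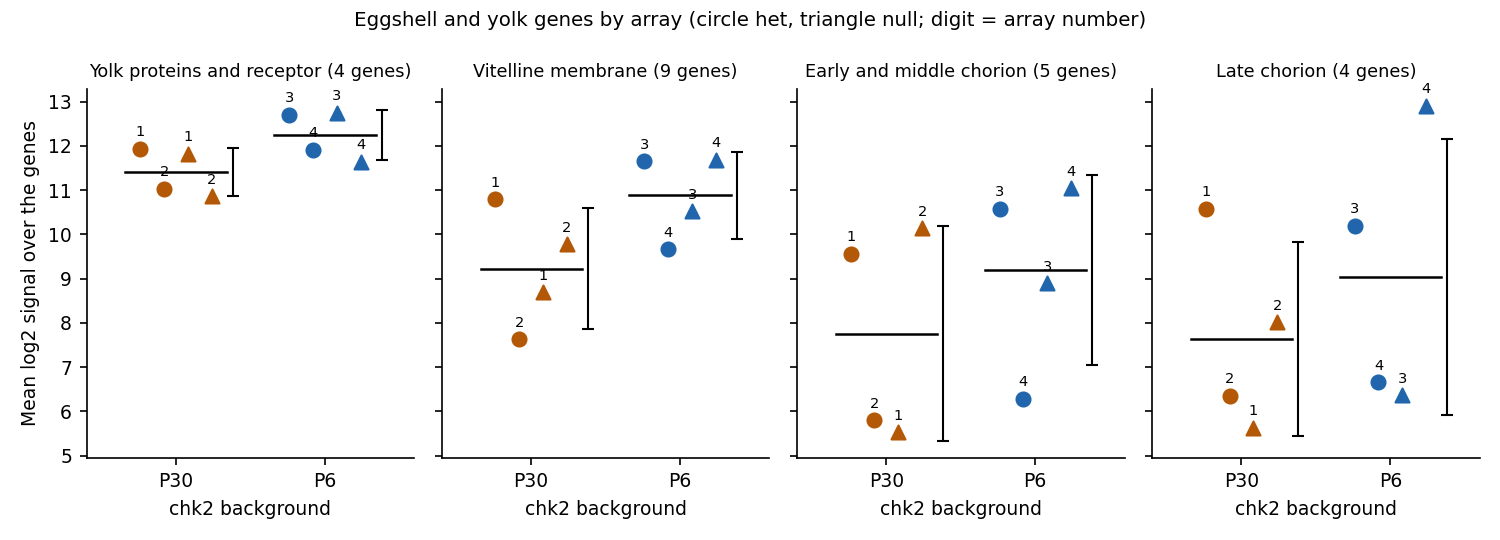
Mean log2 signal over the measured genes of each list (vertical axis) by chk2 background (horizontal axis). Each point is 1 array (circle het, triangle null, digit for the array number), the bar is the mean of 4 arrays and the whisker its SD. In the vitelline membrane panel het 1 and null 2 of the P30 arrays reached the range of the P6 arrays, and in the yolk panel het 1 and null 1 did, while the late chorion panel shows low and high arrays in both.

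The yolk proteins, which follicle cells and fat body secrete for uptake by the oocyte, lay higher in P6 by a smaller amount. All 4 genes of the yolk list had a higher mean in P6, 1 was called, against 1.43% of all genes called higher, and the median log2 difference was 0.78. Yp1 gave log2 signals of 12.93, 12.33, 12.98 and 12.50 in P30 and 13.23, 13.12, 13.14 and 13.06 in P6, with no overlap, and a log2 difference of 0.45 ± 0.17. The called gene was yolkless (yl), the oocyte receptor for yolk proteins. Its log2 signals were 10.49, 10.13, 10.24 and 8.82 in P30 and 12.02, 10.68, 12.10 and 10.23 in P6, a log2 difference of 1.33 ± 0.53, and its 2 high values were those of the number 3 arrays. With the number 1 and 4 arrays alone the log2 difference of yl was 0.09. For Yp2 and Yp3 the log2 differences were 0.63 ± 0.39 and 0.93 ± 0.49.

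Chorion genes, the last to be transcribed, had higher means in P6, but none was called. The 5 early and middle chorion genes had a median log2 difference of 1.49, and the 4 late chorion genes of 1.25. Without null 4 alone the late chorion median was -0.15, of the opposite sign, and without null 1 alone it was 0.36, while the early and middle chorion median was 0.27. Cp36, a major early chorion protein, gave log2 signals of 11.85, 6.4, 5.6 and 11.28 in P30 and 12.21, 6.81, 10.36 and 12.43 in P6, and the log2 difference was 1.67 ± 1.92. Cp15, a late chorion protein, gave 12.24, 6.54, 5.93 and 9.11 in P30 and 9.51, 7.21, 5.83 and 13.81 in P6, with a log2 difference of 0.63 ± 2.11. Both genes spanned over 5 log2 units inside each background, so that the spread between arrays of one background exceeded the difference of the means. For late chorion the median log2 difference was -0.26 among het arrays and 2.77 among null arrays, of opposite sign.

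The chorion differences depended on single arrays, and the size of the vitelline membrane difference moved less. With 1 array left out at a time, the vitelline membrane median stayed between 1.415 (without het 2) and 2.476 (without het 1). The early and middle chorion median ran from 0.27 to 2.37, and the late chorion median from -0.15 to 2.44. With both number 2 arrays left out, a choice made after seeing the data like the other joint omissions below, the median log2 difference was 0.91 for the vitelline membrane list, 1.7 for early and middle chorion and 0.93 for late chorion. With both number 3 arrays left out these were 1.6, 0.84 and 1.91. With the array labelled het 2 and null 4 left out they were 1.19, -0.21 and -1.18, so that only the vitelline membrane list kept its direction. With the number 1 and number 4 arrays alone the vitelline membrane median was 0.90, and the yolk median was -0.11, of the opposite sign to that over all arrays (0.78).

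Genes of the oocyte axis and maternal RNA list, which also holds follicle cell and eggshell genes of embryonic patterning, lay higher in P6 more often than lower. Of 29 measured genes, 21 had a higher mean in P6 and 8 a lower, and the median log2 difference was 0.32. Called higher were 2, against 1.43% of all genes, and called lower none, against 0.609%. The called genes were yemanuclein (yem), an oocyte nuclear protein that works with the histone chaperone Hira, and fs(1)Nasrat (fs(1)N), an eggshell protein needed for terminal patterning. For yem the log2 signals were 6.73, 5.96, 6.39 and 5.66 in P30 and 7.89, 7.18, 8.1 and 6.92 in P6, a log2 difference of 1.34 ± 0.34 without overlap. For fs(1)N they were 9.47, 9.27, 9.69 and 8.46 in P30 and 10.97, 10.19, 10.80 and 9.72 in P6, a log2 difference of 1.2 ± 0.35, also without overlap. Both genes were highest on the number 3 arrays, and with the number 1 and 4 arrays alone the log2 differences were 0.49 and 0.38.

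Among the other members, cactus (cact), the inhibitor of Dorsal, gave a log2 difference of 0.55 ± 0.16, and nudel (ndl), the follicle cell protease that starts the dorsoventral cascade, of 0.87 ± 0.26. The arrays of both genes were parted, although only 1 of the 2 probe sets of cact was higher in P6. In the whole list 5 genes were parted higher, against 3.2% of all genes. The localised determinants osk and gurken (grk) were nearly level, with log2 differences of -0.06 ± 0.08 and -0.05 ± 0.18 (both named after their values were seen). With both number 2 arrays left out the list median was 0.03.

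Genes of the germarium, where stem cells divide, showed no common direction. Of 24 measured genes on the germline stem cell and early germline list, 11 had a higher and 13 a lower mean in P6, none was called, and the median log2 difference was -0.02. Sex lethal (Sxl), the sex determination switch that female germ cells need, was lower in P6 on every array, with log2 signals of 11.71, 12.21, 11.72 and 11.89 in P30 and 11.10, 11.43, 10.29 and 11.44 in P6. Its log2 difference was -0.82 ± 0.26, which is below the fold of 2, and null 3 was the lowest array. Zero population growth (zpg), a germline gap junction protein, gave a log2 difference of -0.31 ± 0.12 with overlap. Nanos, which keeps stem cells in the niche, gave 0.72 ± 0.30.

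Lists of other somatic genes of the egg chamber had smaller median log2 differences over all arrays than the eggshell lists. Of 15 follicle, stalk, polar and border cell regulators, 12 had a higher mean in P6, none was called, and the median log2 difference was 0.26 over all arrays and 0.04 without the number 3 arrays. Slow border cells (slbo), a transcription factor of migrating border cells, gave a log2 difference of 0.65 ± 0.21, and Sox14, a target of the ecdysone receptor, of 0.46 ± 0.18. The log2 signals of slbo, from 3.76 to 5.05, overlapped between backgrounds and lay below 5.66, the median over all probe sets. Of 17 genes of the ecdysone response, 11 were higher and 6 lower with none called, and ultraspiracle (usp), the partner of the ecdysone receptor, gave a log2 difference of 0.75 ± 0.26. Basement membrane genes, such as the collagen IV gene Col4a1 at 0.92 ± 0.57, had a median log2 difference of 0.56 with 8 of 10 higher and none called. That median was -0.02 without both number 3 arrays, where Col4a1 and viking (vkg), a further collagen IV gene, had their highest signals.

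The other 7 of the 12 called genes with the largest log2 differences above P30 were Incenp, Elys, Mical, Orc1, Chd1, pps and scra. Incenp, of the chromosomal passenger complex, gave log2 signals of 7.74, 6.81, 7.2 and 5.82 in P30 and 9.12, 8.09, 10.07 and 7.95 in P6. All P6 arrays lay above all P30 arrays, and the log2 difference was 1.92 ± 0.60. Elys, a nucleoporin that binds chromatin, gave 6.75, 5.47, 6.33 and 5.08 in P30 and 8.44, 7.2, 8.33 and 6.52 in P6, with overlap of null 4 and het 1, and a log2 difference of 1.72 ± 0.54. Orc1, a subunit of the replication origin recognition complex, gave 7.75, 6.57, 6.78 and 6.01 in P30 and 8.64, 7.83, 8.55 and 8.69 in P6, a log2 difference of 1.65 ± 0.39 without overlap.

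Chd1, a chromatin remodeller, differed by 1.56 ± 0.43 on the log2 scale, and scraps (scra), the fly anillin of the cleavage furrow, by 1.5 ± 0.42. Mical, an enzyme that takes actin filaments apart, differed by 1.65 ± 0.38 with both of its probe sets higher. The arrays of these 3 genes were parted, and those of pps, at 1.51 ± 0.61, were not. In each of Incenp, Elys, Chd1, scra, Mical and pps the number 3 arrays had the highest signals and the number 2 arrays the lowest. With the number 1 and 4 arrays alone, the log2 difference was 0.55 for Incenp, 0.32 for Elys, 0.99 for Orc1, 0.50 for Chd1, 0.49 for scra, 0.72 for Mical and 0.10 for pps.

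Genes of the nuclear lamina and envelope, the class to which Otefin belongs, had a median log2 difference of 0.52, and of 0.15 with the number 1 and 4 arrays alone. Of 10 measured genes 7 were higher, and 2 were called higher, against 1.43% of all genes. One was Nup107, a subunit of the nuclear pore, with log2 signals of 8.78, 8.03, 8.64 and 7.55 in P30 and 10.16, 9.43, 10.72 and 8.56 in P6 and a log2 difference of 1.47 ± 0.51, which was 0.28 with the number 1 and 4 arrays alone. The other was Ote itself. Its log2 signals were 9.26, 7.27, 7.58 and 7.48 in P30 and 9.66, 9.29, 8.56 and 8.66 in P6, a log2 difference of 1.15 ± 0.39 (exact permutation p = 0.0857). Within P30 only het 1 reached the P6 level. Without the array labelled het 2 the log2 difference of Ote was 0.73, and with het 2 and null 4 both left out 0.62. The ote mutations change the gene that this probe set reads, and the position of the probes relative to the mutations was not given in the sources used here.

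The chk2 gene gave nearly the same signal in both backgrounds. The log2 signals of lok were 11.41, 11.13, 11.60 and 11.37 in P30 and 11.47, 11.42, 11.27 and 11.86 in P6, and the log2 difference was 0.13 ± 0.15 (exact permutation p = 0.457). Whether its probe set lies within the parts deleted in P6 or P30 was not given in the sources used here, so that this value does not check the alleles. Of the 8 measured genes on each side of lok on chromosome 2L, 1 was called, against 1.43% of all genes called higher. This was nebbish (neb), a kinesin that lies 5 measured genes away, with log2 signals of 7.1, 6.7, 6.84 and 6.51 in P30 and 8.36, 7.45, 8.16 and 7.25 in P6 and a log2 difference of 1.02 ± 0.27 without overlap, or 0.38 with the number 1 and 4 arrays alone. The immediate neighbours barren (barr) and valois (vls) gave 0.21 ± 0.25 and 0.45 ± 0.32. Among 19 measured genes of the checkpoint and DNA damage response, 15 had a higher mean in P6, none was called, and the median log2 difference was 0.17. Mei-41, the fly ATR kinase upstream of the checkpoint kinases, was parted, with log2 signals of 5.75, 5.92, 6.02 and 5.54 in P30 and 6.7, 6.13, 6.59 and 6.15 in P6 and a log2 difference of 0.58 ± 0.18. Of the 19 genes it was the 1 parted, against 3.2% of all genes parted in that direction. With het 2 and null 4 left out the median of the list was -0.06.

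Of the 12 called genes with the largest log2 differences below P30, Scp1 and TpnC41C are muscle genes. Scp1, a sarcoplasmic calcium-binding protein, gave log2 signals of 9.33, 10.85, 9.45 and 11.01 in P30 and 8.1, 7.12, 9.05 and 7.38 in P6, without overlap, and a log2 difference of -2.25 ± 0.57. TpnC41C, a troponin C of muscle, gave 8.75, 10.24, 8.22 and 10.31 in P30 and 7.63, 6.47, 8.48 and 6.27 in P6, a log2 difference of -2.16 ± 0.69. Both were highest on the number 2 arrays and lowest on the number 4 arrays. Of 20 measured sarcomere genes of the muscle sheath, 13 had a lower mean in P6 and 7 a higher. TpnC41C was the 1 called, against 0.609% of all genes called lower. The myosin light chain genes Mlc1 and Mlc2 gave log2 differences of -0.67 ± 0.15 and -0.95 ± 0.30, and the list median was -0.22. With het 2 and null 4 left out that median was 0.01.

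The other genes of the 12 were of mixed kinds. Cpr49Ac, a cuticle protein, gave log2 signals of 10.02, 8.53, 9.5 and 8.22 in P30 and 6.29, 7.65, 7.14 and 6.77 in P6, parted, with a log2 difference of -2.11 ± 0.47. NinaD, a scavenger receptor for carotenoid uptake, gave 8.88, 10.12, 9.7 and 11.62 in P30 and 6.67, 7.68, 10.11 and 7.51 in P6, a log2 difference of -2.09 ± 0.70 with overlap. COX4L, a cytochrome c oxidase subunit, differed by -1.64 ± 0.35 on the log2 scale, CG7781 by -1.63 ± 0.44 and Sclp by -1.63 ± 0.61. CG17470, at -2.25 ± 0.83, had overlapping arrays, with its lowest P30 value on the array labelled het 2. CG31809, Jhbp3 and lncRNA:CR32368 completed the 12, apart from Rnf11 on chromosome 4, at log2 differences of -2.16 ± 0.53, -1.87 ± 0.74 and -1.62 ± 0.59. Over the number 1 and 4 arrays alone the log2 differences of CG17470, Scp1, TpnC41C, Cpr49Ac and ninaD lay between -2.55 and -1.69. Those of the other genes were nearer 0, at -1.29 for CG31809, -0.88 for COX4L, -0.86 for CG7781, -0.41 for lncRNA:CR32368, -0.37 for Sclp and -0.31 for Jhbp3.

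Lists of digestion, conjugation, P450, odorant-binding, cuticle and larval serum genes had more members lower in P6 than higher. Some of these are gene families and not markers of an organ. Of 25 midgut serine protease genes 20 had a lower mean in P6, with a median log2 difference of -0.46 and Jon74E called lower at -1.37 ± 0.53. Of 28 other digestion genes 23 had a lower mean, with none called and a median of -0.33, which was -0.14 without the number 2 arrays. Glutathione S-transferases and UDP-glycosyltransferases, which conjugate foreign compounds, were lower in 33 of 42, with GstE6 called at -1.06 ± 0.40. Cytochrome P450 genes were lower in 49 of 71, with Cyp28a5 called at -1.11 ± 0.20. Odorant-binding and chemosensory genes were lower in 31 of 40, with Obp56a called at -1.43 ± 0.31. Of these 40, 5 were parted lower, against 2.97% of all genes. Cuticle and trachea genes were lower in 29 of 36, with TwdlE called at -1.15 ± 0.34. Mean log2 signals per array of these last 2 lists were 5.51 to 6.27 and 5.14 to 6.09. Both ranges lay around 5.66, the median over all probe sets. The log2 differences over the number 1 and 4 arrays alone were -1.56 for Jon74E, -0.78 for GstE6, -1.15 for Cyp28a5, -0.95 for Obp56a and -0.53 for TwdlE. The serine protease median was -0.01 without null 2 and -0.12 without het 1, and null 2 had the highest list mean. The median of the transferase list was -0.19 over all arrays, -0.05 without the number 2 arrays and 0.00 with the number 1 and 4 arrays alone. For P450 genes the median was -0.10 and, without het 2 and null 4, 0.04. In each of these lists the called genes were at most 1, against 0.609% of all genes called lower. The 3 larval serum protein genes, all lower with a median of -0.79, had none. Their median stayed between -1.0 and -0.47 with arrays left out.

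Antimicrobial and recognition genes were lower in 15 of 20 with none called. Their median log2 difference was -0.28 over all arrays, -0.03 without the number 2 arrays and, of the opposite sign, 0.22 with the number 1 and 4 arrays alone. In this list Drosomycin (Drs), an antifungal peptide, gave a log2 difference of -0.76 ± 0.29. Haemocyte genes were lower in 9 of 11 with none called, by a median of -0.27 that was 0.03 without het 2 and null 4. Hemese (He), a haemocyte surface protein, was parted at -0.98 ± 0.20, while serpent (srp), a blood cell GATA factor, lay on the other side at 0.96 ± 0.37. Of the 11 haemocyte genes 2 were parted lower, against 2.97% of all genes. In the fat body list 11 of 18 were higher, and fatty acid synthase (FASN1) was called higher at 1.14 ± 0.34, or 0.34 with the number 1 and 4 arrays alone. FASN1 was the 1 called, against 1.43% of all genes called higher. Testis genes were lower in 22 of 28 and neuron and glia genes in 9 of 14, with none called in either list, and the medians of -0.15 and -0.11 were 0.02 and 0.06 without the number 3 arrays. Testis means per array, 4.63 to 5.42, lay below the median log2 signal of 5.66 over all probe sets. Those of neuron and glia, 5.29 to 5.78, lay around that median. Turandot and heat shock genes were higher in 7 of 10 and histone genes in 2 of 3, again with none called. Ribosomal protein genes were lower in 33 of 41 by a median of only -0.06, and that direction turned when each array was centred on its median (0.01) or normalised by cyclic loess (0.14). Of the 41, 6 were parted lower, against 2.97% of all genes. Among them were RpLP0-like and RpL29, at log2 differences of -0.33 ± 0.13 and -0.19 ± 0.08.

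**Figure D2:**
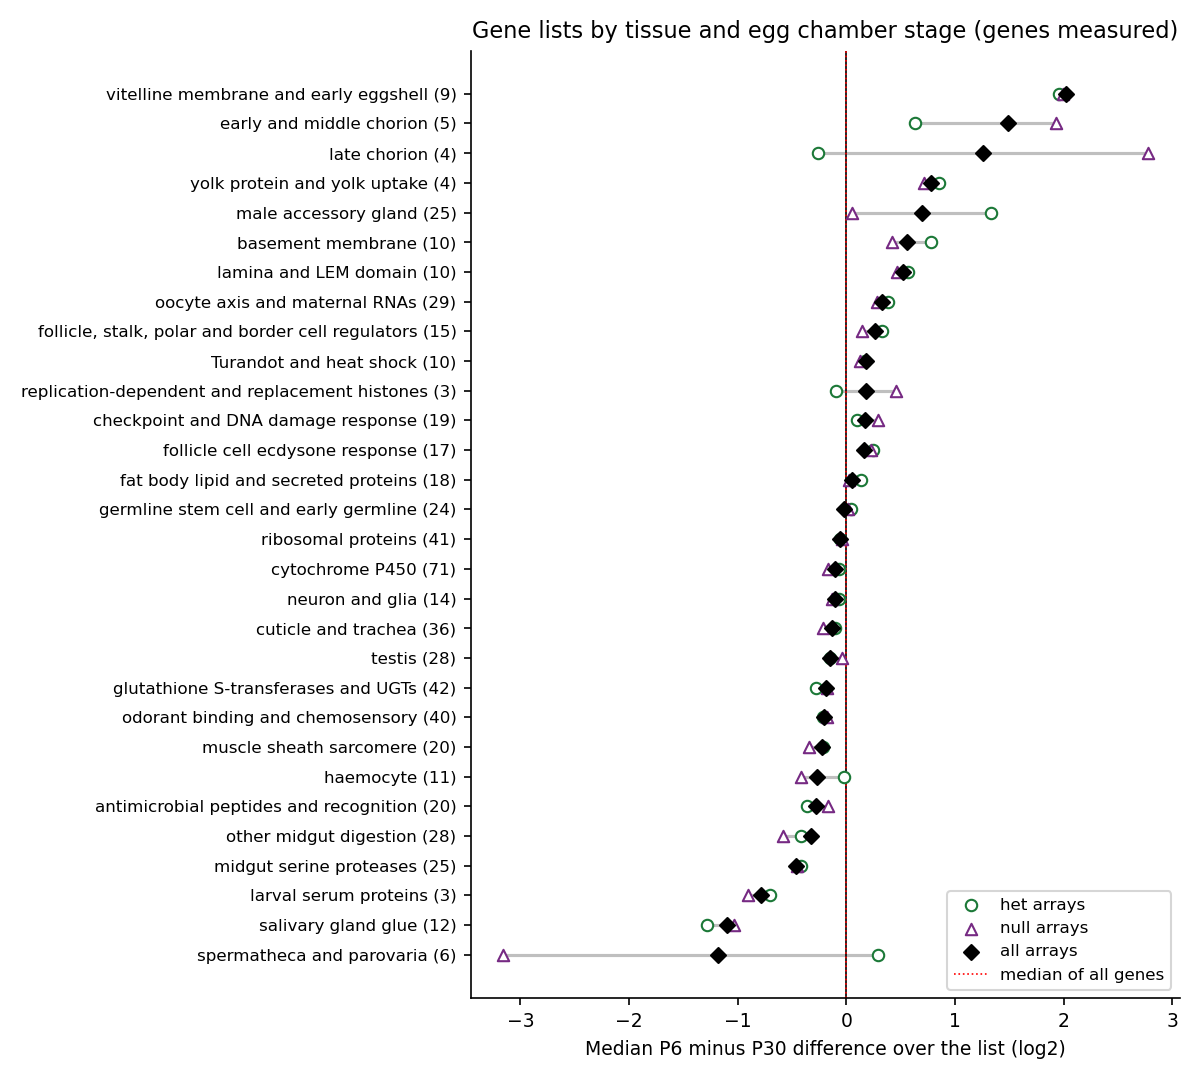
Median P6 minus P30 log2 difference (horizontal axis) over the measured genes of each of 30 lists (vertical axis, number of genes in parentheses), for all arrays (diamonds) and within the het (circles) and null (triangles) arrays. The vitelline membrane list lies near 2.02 in both labels, whereas late chorion, male accessory gland and spermatheca lists differ widely between them.

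The shifts of the glue and male accessory gland lists rested on 1 or 2 arrays. Salivary gland glue genes, which larvae use to fix the pupal case, had a median log2 difference of -1.1, 11 of 12 lower and none called. Their mean log2 signal was 7.71, 4.54, 7.38 and 4.42 on the P30 arrays and 4.97, 4.28, 4.56 and 4.38 on the P6 arrays, so that only the number 1 arrays were high. Sgs8, the glue gene with the lowest difference and named after its values were seen, gave log2 signals of 11.57, 4.16, 10.59 and 4.1 in P30 and 6.03, 4.31, 4.79 and 3.77 in P6. Without both number 1 arrays the median of the list was 0.05. With both number 2 arrays left out, 15 probe sets passed an adjusted p under 0.05 (limma, Benjamini-Hochberg, lowest 0.0365), all lower in P6, and the glue genes Sgs5 and Eig71Ee were among the 10 with gene names.

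Male accessory gland genes, which encode seminal fluid proteins and should be silent in virgin females, had a median log2 difference of 0.69 with none called. Their mean log2 signal was 4.69, 5.43, 5.04 and 4.88 in P30 and 7.79, 5.02, 4.93 and 4.9 in P6, and het 3 alone was high. Acp53C14b, a seminal fluid protein named after its values were seen, gave 3.69, 4.99, 3.6 and 3.96 in P30 and 10.79, 4.43, 4.42 and 3.91 in P6. Without het 3 the median was 0.03. Spermatheca and parovaria genes, from the sperm storage organs and glands beside the oviduct, had a median of -1.18. It was 0.29 among het and -3.16 among null arrays. Send1, a protease of the spermatheca, gave log2 signals of 10.69, 9.5, 11.58 and 12.33 in P30 and 11.44, 8.74, 10.02 and 6.1 in P6, with the lowest on null 4 and the highest on null 2. The part of these tissues in the other differences was not tested.

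Genes on chromosome 4, the small dot chromosome, lay lower in P6 as a group. Of 65 measured genes, 59 had a lower mean in P6, 7 were called lower (10.8%, against 0.609% of all genes), 1 was called higher, and the median log2 difference was -0.55. Rnf11, a ring finger protein and the gene of this chromosome furthest below P30 among the called, gave log2 signals of 10.86, 10.86, 11.41 and 11.65 in P30 and 8.47, 10.04, 8.64 and 11.25 in P6, a log2 difference of -1.6 ± 0.59. The gene yellow-h, called at -1.35 ± 0.48, and 5 genes with CG numbers made up the rest of the 7. The gene on the other side was dati, a zinc finger gene, at 1.38 ± 0.35. Over the number 1 and 4 arrays alone the log2 differences were -0.28 for yellow-h, -0.49 for Rnf11 and 1.68 for dati. Both yellow-h and dati were named after their values were seen.

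The signal of chromosome 4 also differed between arrays of the same background. As a median deviation from the mean of each gene over 8 arrays, its log2 signal was 0.02, 0.54, 0.09 and 0.40 on the P30 arrays and -0.53, 0.00, -0.97 and 0.36 on the P6 arrays. On het 3 and on null 3, 63 of the 65 genes lay below their own mean. On the array labelled het 2 and on null 4, 60 lay above it. Of the other P6 arrays, het 4 lay beside the lowest P30 array and null 4 inside the P30 range. With both number 3 arrays left out, 37 of 65 genes were lower with a median log2 difference of -0.04 and none called lower, and with the number 1 and 4 arrays alone 17 were lower with a median of 0.12. Without het 2 and null 4 the median was -0.80, with 15 called lower.

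A larger share of genes was called higher on the X chromosome than on other arms, a description without a test. Of 1873 measured X genes, 56 were called higher (2.99%) and 4 lower (0.214%), and their median log2 difference was 0.05. On the other large arms 1.04% to 1.28% of genes were called higher. Of all 11982 measured genes, the X held 1873. It held 56 of the 171 genes called higher (32.7%) over all arrays and 9 of 30 (30%) without both number 3 arrays. Without both number 2 arrays it held 3 of 37 (8.11%), and 1 of 61 with the number 1 and 4 arrays alone. On chromosome 2L, which carries chk2, 27 genes were called higher (1.22%) and 20 lower (0.907%).

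**Figure D3:**
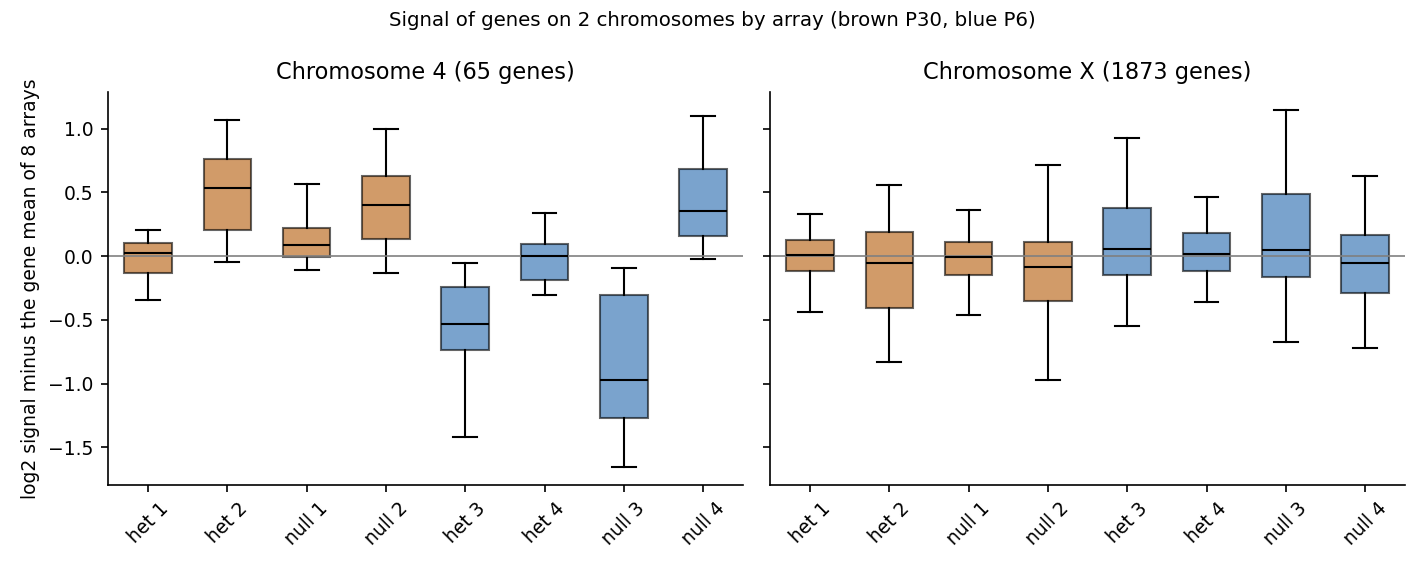
Log2 signal of each gene minus its mean over 8 arrays (vertical axis) for 65 genes of chromosome 4 (left) and 1873 genes of the X (right), by array (horizontal axis, brown P30, blue P6). Boxes span the interquartile range with the median as a line, and whiskers reach from percentile 5 to percentile 95. On chromosome 4 the medians of het 3 (-0.53) and null 3 (-0.97) lie far below the others, while X medians lie between -0.08 and 0.05.

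Called genes also differed in the span of the gene in the annotation. The median span, from first to last base with introns, was 5964 bases for genes called higher in P6, 1428 for genes called lower and 2266 for all genes with a span (11899, 99.3%). In the shortest decile of genes the median log2 difference was -0.15, with 4 called higher and 19 lower. In the eighth decile it was 0.13, with 43 called higher and 4 lower. The array labelled het 2 departed most, with a median deviation of 0.15 in the shortest decile and -0.21 in the eighth. Among the P6 arrays, null 4 ran opposite to the other 3. Differences between 3′ and 5′ control probe sets widen as RNA breaks down. The 3′ minus 5′ log2 signal of Act5C averaged 3.38 ± 0.29 (SD, n = 4) in P30 and 3.44 ± 0.65 in P6, and that of Gapdh 3.74 ± 0.10 and 3.77 ± 0.21, gaps smaller than the SDs. That of 18S ribosomal RNA was 1.10 ± 0.25 in P30 and 1.59 ± 0.43 in P6, a gap larger than either SD, with het 3 at 1.05 among the P30 values. Signal of 18S ribosomal RNA, from its 5′ probe set, was 12.06 ± 0.44 in P30 and 10.83 ± 0.91 in P6, with het 3 at 12.17 among the P30 values. The part of these measures in the other differences was not tested.

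**Figure D4:**
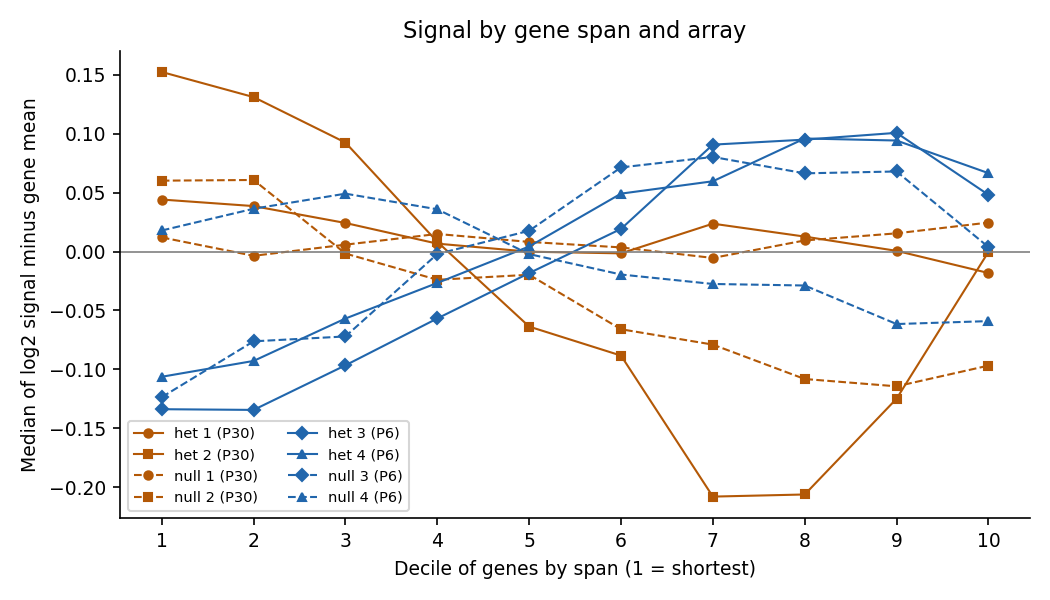
Median over genes of log2 signal minus the mean of the gene over 8 arrays (vertical axis) by decile of gene span (horizontal axis, 1 the shortest), 1 line per array (brown P30, blue P6, solid het, dashed null). The array labelled het 2 falls from 0.15 in the shortest decile to -0.21 in the eighth, and het 3, het 4 and null 3 run the other way.

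The genes with the smallest p were Nplp4, Epac and Ubr3, named after their values were seen. Nplp4, a neuropeptide-like precursor, gave log2 signals of 6.65, 6.68, 7.66 and 7.02 in P30 and 5.71, 5.54, 6.14 and 5.88 in P6. The arrays were parted, with the number 4 arrays the lowest of each label, and the log2 difference was -1.18 ± 0.16. Epac, an exchange factor activated by cyclic AMP, gave 5.77, 6.05, 5.71 and 5.71 in P30 and 6.52, 6.81, 6.99 and 6.74 in P6, a log2 difference of 0.95 ± 0.14 with both probe sets higher. Ubr3, a ubiquitin ligase, gave 7.34, 7.0, 6.97 and 6.43 in P30 and 8.45, 7.93, 8.13 and 8.03 in P6, a log2 difference of 1.2 ± 0.19 with all 3 of its probe sets higher. Their adjusted p was that of the lowest in the fit, 0.512.

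The number of called probe sets moved with the arrays included. Leaving out 1 array at a time gave 85 to 471 called higher and 51 to 219 called lower. Calls were fewest without null 2 (85 higher, 78 lower), null 3 (85 and 81), het 3 (97 and 51) or the array labelled het 2 (123 and 92). They were most without null 4 (471 and 201), het 4 (347 and 162), null 1 (345 and 171) or het 1 (343 and 219). With both number 2 arrays left out there were 47 higher and 103 lower, and with both number 3 arrays left out 47 higher and 46 lower. With the number 1 and 4 arrays alone, 23 of the 307 calls were kept, and the median log2 difference of the 209 higher probe sets was 0.43 in place of 1.16. For the 98 lower probe sets it was -0.58 in place of -1.19.

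**Figure D5:**
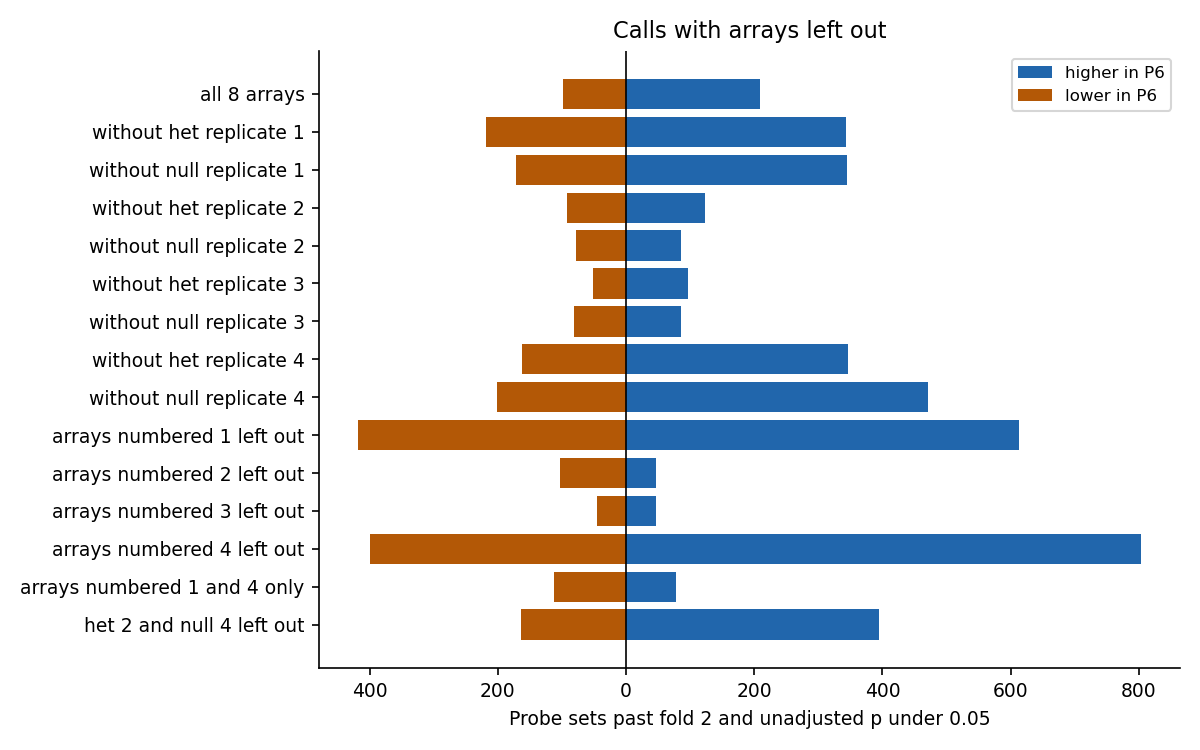
Number of probe sets called (at least 2-fold apart, with an unadjusted p under 0.05) (horizontal axis, higher in P6 to the right, lower to the left) for all 8 arrays and with arrays left out (vertical axis). Bars shorten when number 2 or number 3 arrays are left out (47 higher in each case) and lengthen without the number 1 or number 4 arrays (613 and 803 higher).

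The difference between the backgrounds was also compared between het and null. No probe set passed an adjusted p under 0.05 for this interaction (limma, 0 of 18769, 0%), and the lowest adjusted p was 1.00. At an unadjusted p under 0.05, 212 of the 18769 did, a smaller share than the threshold of 0.05 itself. Taken within het arrays, 54 of the 18769 probe sets were called higher and 52 lower. Within null arrays 140 of them were called higher and 106 lower. All 307 called probe sets had the same sign in both labels, a property that the joint fit favours. CG14949 had the smallest interaction p, with log2 signals of 5.96, 5.79, 7.5 and 8.05 in P30 and 6.5, 6.07, 5.13 and 5.09 in P6, a difference of 0.41 among het and -2.67 among null arrays.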

How the data were processed

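Ovary RNA of 8 samples, 1 array each, was measured on Affymetrix Drosophila 2.0 arrays. The deposited values are log2 signals per probe set made by the authors with RMA (background correction, quantile normalization and summary), and the submitters' notes name Expression Console 1.4.1, while the methods name another program. No source used here gives the log base, which was taken as 2 from values that run from 2.37 to 15.1. Quantile normalization gives arrays nearly equal distributions, so a shift of most genes together would not be seen. Raw images were not analysed here, and the number of arrays limits the precision.

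All 18769 probe sets that are not controls (183 left out) were fitted with limma 3.58.1 in R 4.3.3 (lmFit and eBayes, background with the label as a covariate, 8 arrays), and p-values were adjusted over all of them by Benjamini-Hochberg. A second call used the study's thresholds, at least 2-fold with an unadjusted p under 0.05. The interaction and the values within each label came from a fit of the 4 groups. Single values were tested by exact two-sided permutation over 70 assignments of arrays, without regard to the het or null label. Gene lists have no test. The fit was tested on simulated data.

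Gene names from the platform annotation were updated through a RefSeq gene table (13544 probe sets by gene number, 6 by symbol, 97 kept). Probe sets with several genes (402) or none (4720) were not named, and the probe set with the highest mean stood for its gene. Named genes were the 12 per direction with the largest differences among calls, up to 4 per list with the smallest p, lok, Ote, the neighbours of lok and up to 6 with the smallest interaction p, and others are marked. The members and lists were chosen with earlier results of these data known. Alternatives changed the covariate, test, normalization, filter, variance model, fold, unit and arrays.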

Additional observations from a re-analysis of the deposited data

Results flagged for a closer look

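Single arrays stood apart from the other 3 of their background in 13 of 204 groups of 4 arrays, over 102 measures (the gene lists, the genes named in the report and control probe sets, by Dixon's test of the gap over the range). Chance alone marks about 1 in 20 groups. All values are log2 signals, given without explanation.

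Ovarian measures with a lone array were the following. The mean over the germline stem cell and early germline list was 10.19 on null 3 against 10.48 to 10.53 on the other P6 arrays. Orc1, of the origin recognition complex, was 7.83 on het 4 against 8.55 to 8.69 in the rest of P6. Sox14 was 7.12 on het 1 against 6.36 to 6.47 in the rest of P30, and Ote was 9.26 on het 1 against 7.27 to 7.58. The collagen IV gene Col4a1 was 9.99 on null 2 against 11.01 to 11.05 in the rest of P30. The gene vls, a neighbour of lok, was 10.12 on null 4 against 11.27 to 11.48 in the rest of P6.

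Measures from other tissues or of unknown role formed the remainder. The male accessory gland mean was 7.79 on het 3 against 4.90 to 5.02 in the rest of P6. The cuticle and trachea mean was 6.09 on null 2 against 5.65 to 5.69 in the rest of P30. Hemese (He), of the haemocyte surface, was 4.91 on het 1 against 5.76 to 5.87 in the rest of P30. CG17470 was 7.11 on the array labelled het 2 against 10.3 to 10.64, CG31809 was 5.75 on het 1 against 8.01 to 8.29, and CG7781 was 10.48 on null 2 against 9.93 to 9.97, all in P30. The 3′ probe set of 18S ribosomal RNA was 13.22 on het 3 against 12.13 to 12.21 in the rest of P6.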

How the results depend on the processing

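The count of 0 probe sets past an adjusted p under 0.05 (1828 at an unadjusted p under 0.05) held under each alternative run with limma, and under an unmoderated linear model (1512 unadjusted), except that 15 passed with both number 2 arrays left out. The count for the interaction was 0 as well in the alternatives run for it, the unmoderated linear model and each array left out in turn. Against 209 called higher and 98 lower, the unmoderated linear model called 138 and 53, cyclic loess 128 and 138, array weights 276 and 166, the het arrays fitted alone 104 and 66, and the null arrays fitted alone 104 and 118. A fold of 1.5 gave 666 and 310, and a fold of 3 gave 15 and 15. The share of calls that were higher was 68.1% as deposited, 79.2% after centring each array on its median (270 and 71) and 48.1% after cyclic loess. Leaving out each array in turn gave 85 to 471 higher and 51 to 219 lower. With 2 or 4 arrays left out, choices made after seeing the data, the counts were 613 and 418 without number 1, 47 and 103 without number 2, 47 and 46 without number 3, 803 and 399 without number 4, 394 and 164 without het 2 and null 4, and 78 and 113 with numbers 1 and 4 only. The cause of these changes was not tested. The remaining alternatives (no covariate, dim probe sets left out, trended and robust variance, one probe set per gene) stayed within 1.5 times of both counts.

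Each array number lies in 1 background, so that a number could enter only as a random replicate block. That fit gave 196 higher and 82 lower, at a block correlation of 0.221. Centred on the mean of their label, the het and null arrays of one number had correlations of 0.00, 0.38, 0.54 and -0.10 for numbers 1 to 4. These values still hold the background difference. With label and background both fitted they were 0.055, -0.018, 0.208 and -0.057. Of 8 arrays, 4 correlated best with their own number, and the number was not taken to pair arrays. The SEs of the main fit therefore treat all 8 arrays as independent, and would be too small if arrays of one number are related. Of 984 values of single named genes under the alternatives, 723 kept their side of the threshold and 261 were no longer past it. Called genes among the 723 also kept their direction. A gene not called was counted there even if its sign changed, provided the change was within the spread between arrays. Of 576 list medians, 39 moved by more than the spread between arrays. The list medians of early germline, fat body and ribosomal protein genes changed sign with the scaling.

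The comparison rests on 4 arrays against 4, with 2 per label, and this number limits its precision. Background, second chromosome, ote allele and handling cannot be told apart.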
